A study of Mus musculus with 6 samples.

Results

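A set of 39 genes of the extracellular matrix and its remodelling was followed in liver RNA from male C57BL/6 mice at 2 yr of age on a normal chow diet. WT mice (n = 3) were compared with CgA-KO mice (n = 3), which lack chromogranin A (CgA), the prohormone encoded by Chga. The members were the rows of the deposited count table that carry the symbol of a collagen, a matrix glycoprotein or proteoglycan, an elastic fibre component, a crosslinker, a matrix metalloproteinase (MMP), a tissue inhibitor of metalloproteinases (TIMP), or a TGF-beta ligand or readout, 39 of 32212 rows in all. By role they were 5 fibrillar collagens, 4 other interstitial collagens, 9 basement membrane genes, 5 glycoproteins or proteoglycans, 3 elastic fibre genes, 3 crosslinkers, 3 MMPs, 3 TIMPs and 4 TGF-beta ligands or readouts. For 38 members the row had the symbol itself, and Ctgf was found under its current symbol, Ccn2.

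The extracellular matrix is the protein scaffold between cells, and in liver it falls into distinct layers. The interstitial layer is built from fibrillar collagens, whose triple helices pack into banded fibres, with type VI collagen, elastic fibres, glycoproteins and proteoglycans bound around them. The basement membrane is a sheet of type IV collagen, laminins, nidogen and perlecan that lies under epithelium and around vessels and nerves, and that is thin and discontinuous along the healthy liver sinusoid. Lysyl oxidases crosslink collagen and elastin, MMPs cleave the matrix, TIMPs block them, and TGF-beta is the best known inducer of matrix genes in hepatic stellate cells, the vitamin A-storing pericytes of the sinusoid.

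The 6 poly(A)-selected libraries held between 10558616 and 31087453 counts, with WT replicate 1 the shallowest. Levels below are CPM, the counts per 1e6 reads after scaling with TMM (trimmed mean of M values) factors, in the order of replicates 1, 2 and 3 of each genotype. A difference is the log2 fold change of CgA-KO over WT in edgeR's quasi-likelihood fit, with its approximate standard error (SE), and a gene was called when its p-value, adjusted by Benjamini-Hochberg over all 13867 genes tested, fell under 0.05. Chga itself had 0 counts in all 6 libraries, so the knocked-out gene could not check the labels. The tissue label was checked with 10 hepatocyte genes, including Alb and Apoa1, which together reached between 51237 and 99566 CPM per library, and none of the 10 was called. The labels do not say how many cages or litters the mice came from, and a p-value here measures the spread between these 6 livers.

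Of the 39 matrix genes, 9 were called, all of them higher in CgA-KO livers, and none was called lower. Across all genes tested, 12.4% were called in either direction, 8.6% higher and 3.84% lower. The 9 were Fbln5, Lama2, Postn, Col14a1, Tgfbi, Lum, Lamb1, Bgn and Mmp14, which came from 6 of the 9 roles and did not include a fibrillar collagen, a crosslinker or a TIMP. A total of 38 members passed the filter on low counts, and their log2 fold changes ran from -1.02 for Col15a1 to 2.68 for Fbln5, with a median of 0.85. The median over all genes tested was -0.01, and 15.9% of all genes lay at or above the members' median. An unadjusted p under 0.05 was seen for 19 of the 38, against 29.1% of all genes tested. The log2 fold change was above 0 for 34 of the 38, against 49.4% of all genes tested, and scaling by library size alone moved 3 of the other 4 (Fn1, Mmp19 and Timp3) above 0 as well. In whole liver RNA, more cells of a type and more RNA per cell cannot be told apart.

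**Figure D1:**
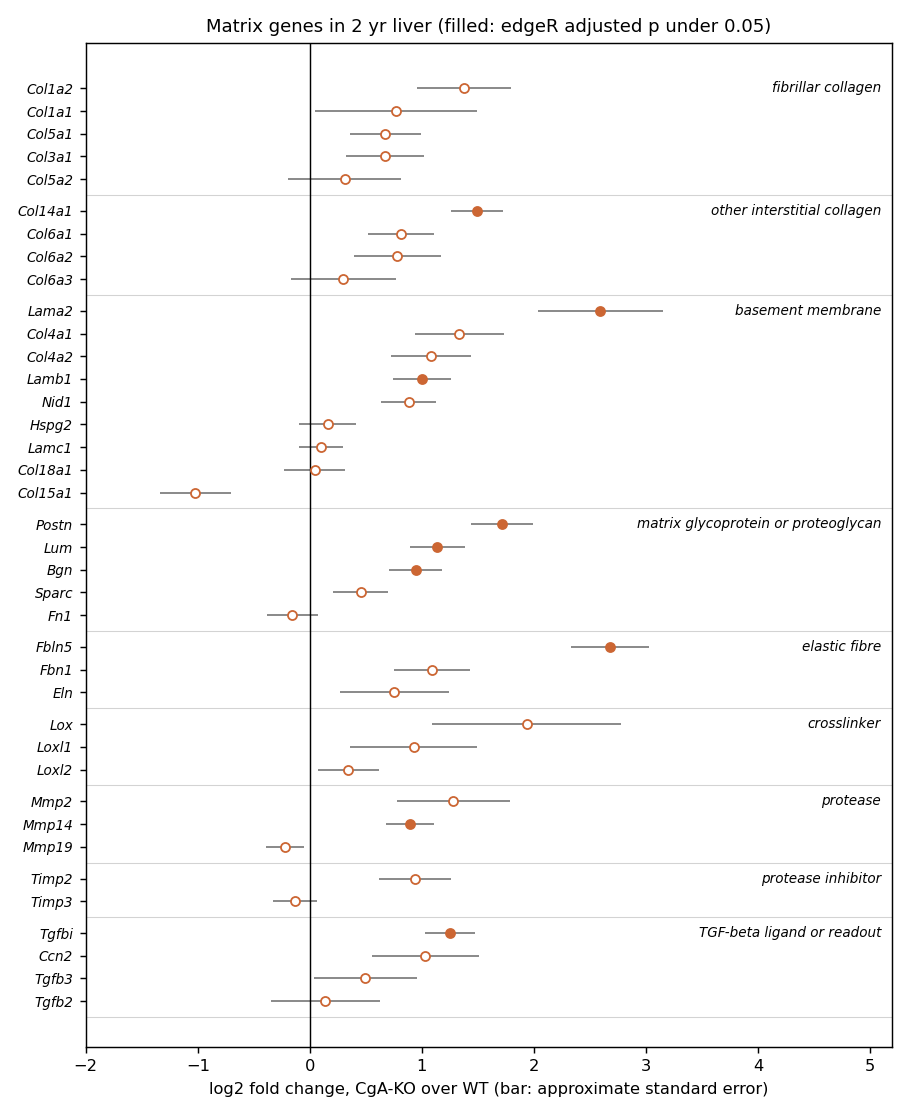
Log2 fold change of CgA-KO over WT liver (x axis) for the 38 matrix genes tested, grouped by role. Points are edgeR estimates from 3 libraries per genotype, bars are approximate standard errors, and filled points mark the 9 genes called at an adjusted p under 0.05. The 9 filled points lie between 0.89 (Mmp14) and 2.68 (Fbln5), while all 5 fibrillar collagens are open and only 4 genes lie below 0.

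The upstream sequences of Postn, Fbln5 and Tgfbi are shown first, because they let the control regions of genes that rose together be compared base by base. Postn and Fbln5 stayed called whichever single liver was removed, and Tgfbi in 5 of those 6 fits. The stretches are the bases just upstream of the transcript start, read 5′ to 3′ on the strand of the gene, and were taken from RefSeq on GRCm38.p6. Capitals mark matches on either strand to 6 short motifs, which are the Smad box CAGAC, the AP-1 site TGANTCA, the CCAAT box CCAAT, the GC box GGGCGG, the TATA box TATAAA and the TEAD motif GGAATG, none of which overlapped another in these stretches. Postn is shown from chr3:54360857-54361106 on the plus strand, Fbln5 from chr12:101819120-101819369 on the minus strand, and Tgfbi from chr13:56609336-56609522 on the plus strand, where the stretch ends before the first annotated exon base.
Postn: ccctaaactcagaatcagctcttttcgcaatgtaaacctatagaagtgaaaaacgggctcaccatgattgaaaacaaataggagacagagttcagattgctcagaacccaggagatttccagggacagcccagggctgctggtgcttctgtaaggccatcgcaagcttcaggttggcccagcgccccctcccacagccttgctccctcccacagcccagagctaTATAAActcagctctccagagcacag
Fbln5: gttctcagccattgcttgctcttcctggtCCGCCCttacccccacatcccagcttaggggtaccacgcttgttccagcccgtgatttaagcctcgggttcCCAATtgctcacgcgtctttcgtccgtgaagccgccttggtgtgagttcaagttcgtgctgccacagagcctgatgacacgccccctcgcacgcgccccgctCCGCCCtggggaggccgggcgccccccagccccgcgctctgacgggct
Tgfbi: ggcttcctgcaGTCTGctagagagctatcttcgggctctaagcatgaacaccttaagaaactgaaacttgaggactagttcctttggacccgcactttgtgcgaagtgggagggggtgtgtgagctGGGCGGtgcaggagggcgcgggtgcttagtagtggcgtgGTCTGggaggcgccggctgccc

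The Postn stretch held 1 TATA box, close to its 3′ end, and none of the other 5 motifs. The Fbln5 stretch held 1 CCAAT box and 2 GC boxes but no TATA box. The Tgfbi stretch held 2 Smad boxes and 1 GC box. Windows of 250 bases were found for 25 of the 39 members, and Col14a1 was among those with no entry. The Smad box was in 11 of the 25 windows (44%), against 42.2% of the 32851 windows of the same length in the whole table, and the AP-1 site was in 1 (4%), against 6.75%. The TEAD motif was in 3 members' windows (12%), against 12.6% of all windows. The GC box was in 16 (64%), against 32.7%, and the CCAAT box was in 11 (44%), against 33.8%. The windows lie upstream of RefSeq starts, and 14 of the 25 held annotated exon bases, 3 of them (Col4a1, Col4a2 and Fbn1) over all 250 bases. The RefSeq start was 2816 bases from the GENCODE start for Lama2, 3103 for Sparc and 1555 for Fbn1. Of the 11 windows without exon bases, 6 held a GC box and 3 a CCAAT box. A match is a run of letters and was not tested as a binding site.

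Fibrillar collagens varied widely among the WT livers. All 5 had a log2 fold change above 0, from 0.31 to 1.37, but none was called. Col1a1 and Col1a2 encode the 2 chains of type I collagen, the main collagen of scar tissue. Col1a1 was at 11.4, 1.74 and 1.69 CPM in WT and at 4.09, 11.9 and 8.29 CPM in CgA-KO livers. WT replicate 1 was close to the highest CgA-KO liver, and the other two WT livers were below every CgA-KO liver. The log2 fold change of Col1a1 was 0.77 (SE 0.72), with edgeR's adjusted p = 0.525. Col1a2 was at 9.58, 4.42 and 3.56 CPM in WT and at 10.3, 21.9 and 12.5 CPM in CgA-KO livers. The genotypes did not overlap for Col1a2, although WT replicate 1 came within 1 CPM of CgA-KO replicate 1. Its log2 fold change was 1.37 (SE 0.42), with edgeR's adjusted p = 0.0651. Type I collagen is mostly a trimer of 2 Col1a1 chains and 1 Col1a2 chain, and the count ratio of Col1a2 over Col1a1, which is not adjusted for transcript length, was 0.843 in WT replicate 1 and between 1.50 and 2.54 in the other 5 livers.

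Col3a1 encodes type III collagen, the reticulin of the liver lobule. Among the fibrillar members it had the highest CPM, at 27.6, 13.0 and 10.7 CPM in WT and 20.3, 32.1 and 28.4 CPM in CgA-KO livers. WT replicate 1 lay inside the CgA-KO range, and the log2 fold change was 0.67 (SE 0.35), with edgeR's adjusted p = 0.242. Col5a1 and Col5a2 encode chains of type V collagen, which nucleates type I fibres. A further type V gene, Col5a3, is not a member and is given below with the other interstitial matrix genes. Col5a1 was at 12.5, 4.94 and 8.30 CPM in WT and at 13.2, 14.9 and 12.6 CPM in CgA-KO livers. Its genotypes were separated only by the distance between 12.5 CPM in WT replicate 1 and 12.6 CPM in CgA-KO replicate 3, and the log2 fold change of 0.67 (SE 0.32) had edgeR's adjusted p = 0.198. Col5a2 was at 4.48, 0.978 and 2.37 CPM in WT and at 3.81, 2.85 and 2.82 CPM in CgA-KO livers. WT replicate 1 lay above every CgA-KO liver, and the other two WT livers lay below every one. Its log2 fold change was 0.31 (SE 0.50), with edgeR's adjusted p = 0.732.

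The 9 basement membrane genes did not move as 1 block. Lama2 and Lamb1 were called higher, Col4a1, Col4a2 and Nid1 had no overlap between genotypes without being called, Lamc1, Hspg2 and Col18a1 had log2 fold changes of at most 0.16, and Col15a1 had a log2 fold change below 0. The median of the group was 0.88. Lama2 encodes the alpha 2 laminin chain, known from muscle and nerve basement membrane, and is found on chromosome 10 of GRCm38, between bases 26980036 and 27619758. Its reads were few, with 5, 9 and 3 counts in WT and 28, 78 and 40 counts in CgA-KO livers, or 0.448, 0.383 and 0.127 CPM against 1.30, 2.47 and 1.79 CPM. All 3 CgA-KO livers lay above all WT livers. Lama2 passed the filter on low counts through its CgA-KO libraries, and its log2 fold change of 2.59 (SE 0.56, edgeR's adjusted p = 0.0203) rests on few WT reads. A count of 3 in WT replicate 3 is at the detection floor set here, 3 counts.

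Lamb1, on chromosome 12 from 31265234 to 31329644, encodes the beta 1 laminin chain, a partner in many laminin trimers. Its levels were 5.82, 4.25 and 4.24 CPM in WT and 9.01, 11.5 and 7.84 CPM in CgA-KO livers. No WT liver reached the lowest CgA-KO liver. The log2 fold change was 1.00 (SE 0.26), with edgeR's adjusted p = 0.0378. The gamma 1 chain that completes such trimers did not follow, since Lamc1 was at 13.3, 11.2 and 12.5 CPM in WT and at 11.5, 15.0 and 13.0 CPM in CgA-KO livers. Lamc1 overlapped fully, with a log2 fold change of 0.10 (SE 0.20) and edgeR's adjusted p = 0.788. Nid1 encodes nidogen, which links the laminin and collagen IV networks. It was at 11.3, 7.83 and 6.14 CPM in WT and at 15.3, 15.9 and 15.0 CPM in CgA-KO livers. The CgA-KO livers were nearly equal and all above WT, and with a log2 fold change of 0.88 (SE 0.25) Nid1 was the first gene to miss the threshold, ranking 1727 by p-value where 1726 genes were called.

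Col4a1 and Col4a2 encode the 2 chains of the common type IV collagen trimer. They lie head to head on chromosome 8, with Col4a1 from 11198423 to 11312826 on the minus strand and Col4a2 from 11312805 to 11449287 on the plus strand, so that their annotated first exons overlap by 22 bases. Col4a1 was at 24.5, 9.61 and 7.84 CPM in WT and at 29.5, 42.8 and 31.6 CPM in CgA-KO livers. Col4a2 was at 13.8, 7.27 and 4.83 CPM in WT and at 17.3, 21.7 and 15.0 CPM in CgA-KO livers. The genotypes did not overlap for either gene, and WT replicate 1 was the WT liver nearest to CgA-KO for both. The log2 fold change was 1.33 (SE 0.40) for Col4a1, with edgeR's adjusted p = 0.0606. For Col4a2 it was 1.08 (SE 0.36), with edgeR's adjusted p = 0.0836. The count ratio of Col4a1 over Col4a2, not adjusted for length, was 1.77, 1.32 and 1.62 in WT and 1.71, 1.98 and 2.11 in CgA-KO livers, and the genotypes overlapped in it.

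Col15a1 and Col18a1 encode the multiplexins, collagens at the border of the basement membrane whose C-terminal fragments include endostatin. Col15a1, between bases 47208161 and 47313167 of chromosome 4, was at 7.88, 5.83 and 5.55 CPM in WT and at 3.57, 2.09 and 3.81 CPM in CgA-KO livers. It was the member with the lowest log2 fold change, and its genotypes did not overlap. The estimate was -1.02 (SE 0.32), with edgeR's adjusted p = 0.0682, while DESeq2's adjusted p was 0.0280, the only test among all alternatives that called it. Col18a1, the hepatocyte-expressed multiplexin, was at 541, 606 and 713 CPM in WT and at 604, 834 and 478 CPM in CgA-KO livers. The highest and the lowest of the 6 livers were both CgA-KO, and the log2 fold change was 0.04 (SE 0.27), with edgeR's adjusted p = 0.939. Hspg2 encodes perlecan, the heparan sulfate proteoglycan of the basement membrane. Its levels were 18.9, 10.9 and 11.1 CPM in WT and 13.8, 17.8 and 13.8 CPM in CgA-KO livers, with WT replicate 1 the highest of the 6 and a log2 fold change of 0.16 (SE 0.26; edgeR's adjusted p = 0.734).

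**Figure D2:**
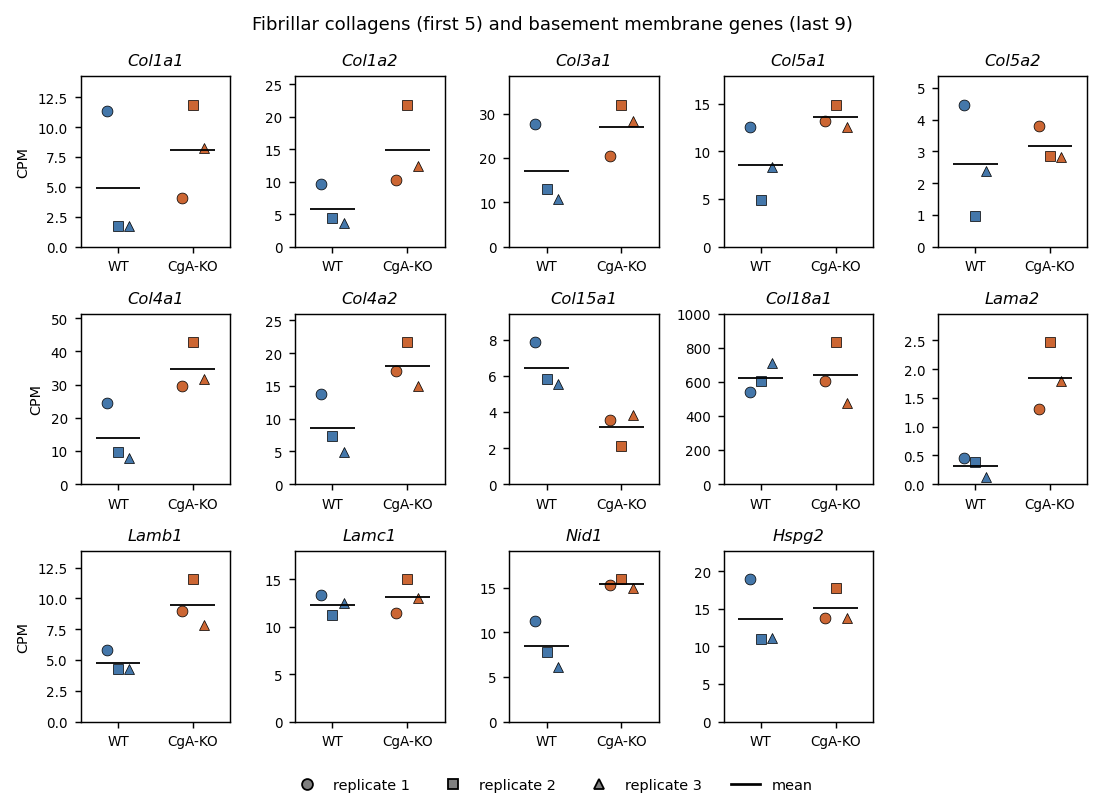
CPM (y axis, from 0) of the 5 fibrillar collagens and the 9 basement membrane genes in each of the 6 livers. Points are single livers, with the marker shape giving the replicate number, and lines are means of 3. WT replicate 1 (circle) sits with or near the CgA-KO livers in Col1a1, Col3a1, Col4a1 and Col5a1, and Col15a1 is the gene whose CgA-KO livers (2.09 to 3.81 CPM) all lie below WT (5.55 to 7.88 CPM).

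Set beside each other, the median log2 fold change was 0.88 over the basement membrane genes and 0.67 over the fibrillar collagens, a difference of 0.21 that was given no test. The order of the groups depended on how it was summed up, because the mean was 0.68 for the basement membrane genes and 0.76 for the fibrillar collagens. The mean log2 CPM of the 9 basement membrane genes was 3.74, 3.22 and 2.99 in WT and 3.89, 4.19 and 3.90 in CgA-KO livers, so the genotypes did not overlap. For the 5 fibrillar collagens the mean log2 CPM was 3.49, 1.84 and 2.10 in WT and 3.10, 3.70 and 3.35 in CgA-KO livers, and WT replicate 1 lay within the CgA-KO range. The basement membrane mean minus the fibrillar mean was 0.25, 1.38 and 0.89 in WT and 0.80, 0.48 and 0.55 in CgA-KO livers, overlapping between genotypes. The difference of medians was -0.045 without WT replicate 1, and it was -0.15 when at least 10 counts were asked of every library, a filter that leaves out Lama2.

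WT replicate 1 stood apart in the matrix genes. It was the highest of the WT livers in 34 of the 38 members tested, including all 5 fibrillar collagens, and its mean log2 CPM over the 38 was 3.33, against 2.68 and 2.53 in the other two WT livers and between 3.53 and 3.90 in CgA-KO livers. It was also the highest WT liver in genes of smooth muscle and myofibroblasts, with Acta2 (smooth muscle actin) at 7.08 CPM, against 0.596 and 1.91, and Tagln (transgelin) at 17.8 CPM, against 4.59 and 4.32. By mean log2 CPM it was the highest WT liver on 8 of the 12 cell type marker lists, which took in Kupffer cells (0.52 above the WT mean), fibroblasts (0.44), vascular endothelial cells (0.30) and stellate cells (0.16) as well as myofibroblasts (0.92). It was the lowest WT liver on the hepatocyte (-0.28), neutrophil (-0.59) and mesothelial (-1.01) lists. The part of any of these cells in the matrix levels of that liver was not tested. Without WT replicate 1, 19 members were called, among them Col1a1, Col1a2, Col3a1, Col5a1, Col4a1, Col4a2 and Nid1, where 14.9% of all genes were called. On the CgA-KO side, replicate 2 was the highest of all 6 livers in 25 of the 38 members and in all 9 called ones. Without it, 4 members were called, Fbln5, Col14a1, Postn and Tgfbi, where 6.98% of all genes were called. Leaving out WT replicate 2 left 5 called members (5.94% of all genes), and leaving out WT replicate 3 left 3 (2.79%). Leaving out CgA-KO replicate 1 left 6 (5.24%), and leaving out CgA-KO replicate 3 left 7 (8.75%). Fbln5, Col14a1 and Postn were called in all 6 of these fits, Tgfbi in 5, Lama2 and Mmp14 in 3 each, Lum and Bgn in 2 each and Lamb1 in 1. With all 6 livers, DESeq2 called 15 members (17.2% of all genes), limma-voom 13 (13.1%), the fit with the replicate number as a block 9 (10.8%), and a threshold of 0.01 left 3 (2.6%).

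**Figure D3:**
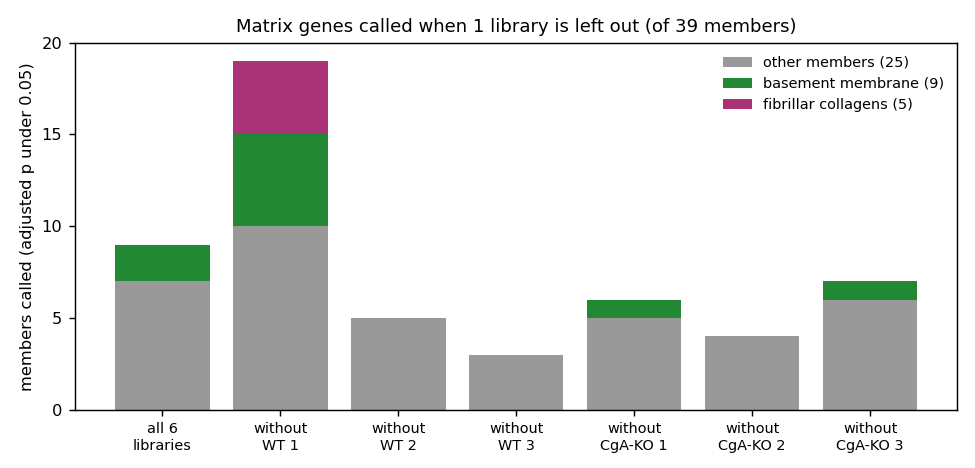
Number of the 39 matrix genes called at an adjusted p under 0.05 (y axis, from 0) with all 6 libraries and with each library left out, split into fibrillar collagens, basement membrane genes and other members. The count is 9 with all libraries, 19 without WT replicate 1 and between 3 and 7 without any other library, and fibrillar collagens are called only without WT replicate 1, where 4 of the 5 are.

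Among the other interstitial collagens, Col14a1 had the clearest increase. Type XIV collagen sits on the surface of fibrils and spaces them, and its gene lies on chromosome 15 from 55307750 to 55520803. Col14a1 was at 26.9, 22.3 and 17.2 CPM in WT and at 65.4, 72.5 and 48.1 CPM in CgA-KO livers. Every CgA-KO liver was above every WT liver. The increase was 2.81-fold, a log2 fold change of 1.49 (SE 0.23), with edgeR's adjusted p = 0.00707. The 3 chains of type VI collagen, which forms beaded filaments around cells, were not called. Col6a1 was at 9.76, 6.98 and 9.36 CPM in WT and at 14.6, 21.0 and 10.1 CPM in CgA-KO livers, without overlap, and its log2 fold change was 0.81 (SE 0.29), with edgeR's adjusted p = 0.103. Col6a2 and Col6a3 overlapped between genotypes and had log2 fold changes of 0.78 and 0.30. Col6a3 was highest in WT replicate 1, at 13.6 CPM, where the other two WT livers were at 3.57 and 5.12 CPM.

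Glycoproteins and proteoglycans held 3 of the 9 called genes. Postn encodes periostin, a matricellular protein that rises in healing and fibrosing tissue, and lies on chromosome 3 from 54361109 to 54391037. It was at 6.18, 4.38 and 5.89 CPM in WT and at 12.9, 23.8 and 17.2 CPM in CgA-KO livers. The lowest CgA-KO liver was well above the highest WT liver. Postn was 3.29-fold higher, a log2 fold change of 1.72 (SE 0.28), with edgeR's adjusted p = 0.00800. Lum encodes lumican, a leucine-rich proteoglycan that regulates fibril assembly, on chromosome 10 from 97565128 to 97572703. It was at 3.67, 3.36 and 3.01 CPM in WT and at 6.68, 8.50 and 6.86 CPM in CgA-KO livers. The livers of each genotype lay close together and apart from the other genotype. Lum was 2.20-fold higher, a log2 fold change of 1.14 (SE 0.25), with edgeR's adjusted p = 0.0212.

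Bgn encodes biglycan, a relative of lumican that binds collagen and TGF-beta, on chromosome X from 73483602 to 73495933. It was the most abundant of the called genes, at 76.9, 73.2 and 60.9 CPM in WT and at 122, 177 and 106 CPM in CgA-KO livers. The genotypes did not overlap. Bgn was 1.92-fold higher, a log2 fold change of 0.94 (SE 0.24), with edgeR's adjusted p = 0.0342. Sparc, which encodes a collagen-binding glycoprotein, overlapped between genotypes and was not called, with a log2 fold change of 0.45 (SE 0.24). Fn1, which encodes fibronectin and is made in bulk by hepatocytes for plasma, was at 701, 880 and 840 CPM in WT and at 668, 803 and 702 CPM in CgA-KO livers. It overlapped, with a log2 fold change of -0.16 (SE 0.23; edgeR's adjusted p = 0.694) that came to 0.13 when libraries were scaled by size alone.

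Fn1 and Col18a1 together made up most of the reads on these genes. They held 70.1%, 78.6% and 82.1% of the members' counts in WT and 65.7%, 65.1% and 64.4% in CgA-KO livers. A sum over all members therefore mostly follows these abundant genes, at between 1772 and 1892 CPM in WT and between 1832 and 2516 CPM in CgA-KO livers. The other 37 members summed to 530, 404 and 339 CPM in WT and to 665, 879 and 652 CPM in CgA-KO livers, without overlap. Per kb of annotated exon, Col18a1 and Fn1 ranked first and second in mean level in both genotypes. Bgn went from rank 4 of 39 in WT to rank 3 in CgA-KO, Tgfbi from 6 to 4 and Fbln5 from 31 to 18.

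Of the 3 elastic fibre genes, Fbln5 was called, and it had the largest fold change of all members. It encodes fibulin 5, which guides elastin onto microfibrils and binds integrins on the cell surface, and it lies on chromosome 12 from 101746565 to 101819055. Chga, the knocked-out gene, is also on chromosome 12, and any part of the altered Chga locus in the Fbln5 level was not tested. Fbln5 was at 2.96, 2.51 and 1.61 CPM in WT and at 14.3, 20.4 and 9.91 CPM in CgA-KO livers. All WT livers were low, and the lowest CgA-KO liver was above 3 times the highest of them. The increase was 6.40-fold, a log2 fold change of 2.68 (SE 0.35), with edgeR's adjusted p = 0.00466, and Fbln5 ranked 94 by p-value among the 13867 genes. Fbn1, which encodes the microfibril protein fibrillin 1, was at 2.51, 1.79 and 1.44 CPM in WT and at 3.34, 4.79 and 3.90 CPM in CgA-KO livers. It did not overlap, and its log2 fold change was 1.09 (SE 0.34), with edgeR's adjusted p = 0.0705. In the annotation 20.1% of the exon bases of Fbn1 are shared with another gene, as are 28.3% for Mmp19, 23.2% for Ccn2, 21.3% for Timp3 and 12.4% for Tgfb3, so that reads there could be split between genes, while none of the 9 called members had over 3.86%. Eln, the elastin gene, overlapped and had a log2 fold change of 0.75 (SE 0.48; edgeR's adjusted p = 0.343).

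No crosslinker was called. Lox, which encodes the founding lysyl oxidase, had 4, 4 and 0 counts in WT and 13, 18 and 13 counts in CgA-KO livers. All CgA-KO livers were above WT, but the WT counts were at or near the floor of 3 counts, and the log2 fold change of 1.93 (SE 0.85) had edgeR's adjusted p = 0.169. Like Lama2, Lox passed the filter through its CgA-KO libraries. Loxl1 and Loxl2, relatives with roles in elastin and collagen IV crosslinking, had log2 fold changes of 0.93 (SE 0.57) and 0.34 (SE 0.27).

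Of the matrix-cleaving enzymes, Mmp14 was called. It encodes MT1-MMP, a membrane-bound collagenase that also activates MMP2, and lies on chromosome 14 from 54431612 to 54445364. Mmp14 was at 19.7, 27.0 and 22.6 CPM in WT and at 33.8, 52.9 and 42.2 CPM in CgA-KO livers. The genotypes did not overlap, and here WT replicate 1 was the lowest of the 6. Mmp14 was 1.86-fold higher, a log2 fold change of 0.89 (SE 0.21), with edgeR's adjusted p = 0.0285. Its substrate Mmp2, a gelatinase made by stellate cells, was at 1.43, 0.978 and 0.551 CPM in WT and at 1.25, 3.08 and 2.64 CPM in CgA-KO livers. WT replicate 1 exceeded CgA-KO replicate 1, and the log2 fold change was 1.28 (SE 0.50), with edgeR's adjusted p = 0.133. Mmp19 was not called, at 38.9 to 52.5 CPM over the 6 livers, and its log2 fold change was -0.22 (SE 0.17), or 0.041 with scaling by library size alone.

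The TIMPs were not called. Timp1, the inducible inhibitor that marks active fibrogenesis, had 6, 10 and 8 counts in WT and 7, 7 and 11 counts in CgA-KO livers, or between 0.222 and 0.537 CPM, and did not pass the filter. The genotypes overlapped for Timp1, and a change was not detectable at this depth. Timp2, which joins MMP14 in the activation of MMP2, was at 14.8, 12.1 and 6.01 CPM in WT and at 20.9, 24.7 and 16.9 CPM in CgA-KO livers. The genotypes did not overlap, and the log2 fold change was 0.94 (SE 0.32), with edgeR's adjusted p = 0.0883. Timp3, the inhibitor bound to the matrix, ranged from 19.3 to 28.6 CPM over the 6 livers, with a log2 fold change of -0.13 (SE 0.20) that came to 0.13 with scaling by library size alone. The count ratio of Mmp14 over Timp2 was 1.33, 2.24 and 3.76 in WT and 1.62, 2.14 and 2.49 in CgA-KO livers, and it overlapped.

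Of the TGF-beta ligands and readouts, Tgfbi was called. It encodes the TGF-beta-induced protein, an integrin-binding matrix protein, and lies on chromosome 13 from 56609523 to 56639562. Tgfbi was at 34.8, 36.7 and 25.9 CPM in WT and at 68.5, 96.0 and 67.2 CPM in CgA-KO livers. The genotypes were well apart. It was 2.38-fold higher, a log2 fold change of 1.25 (SE 0.22), with edgeR's adjusted p = 0.0110. Ccn2, the connective tissue growth factor gene, is another readout of TGF-beta. It was at 15.7, 5.96 and 3.85 CPM in WT and at 16.5, 12.0 and 22.6 CPM in CgA-KO livers. WT replicate 1 exceeded CgA-KO replicate 2, and the log2 fold change of 1.03 (SE 0.48) had edgeR's adjusted p = 0.191. The ligand genes Tgfb2 and Tgfb3 were scarce, at 0.381 to 0.634 CPM and 1.12 to 3.11 CPM over the 6 livers, and had log2 fold changes of 0.14 (SE 0.49) and 0.50 (SE 0.46).

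**Figure D4:**
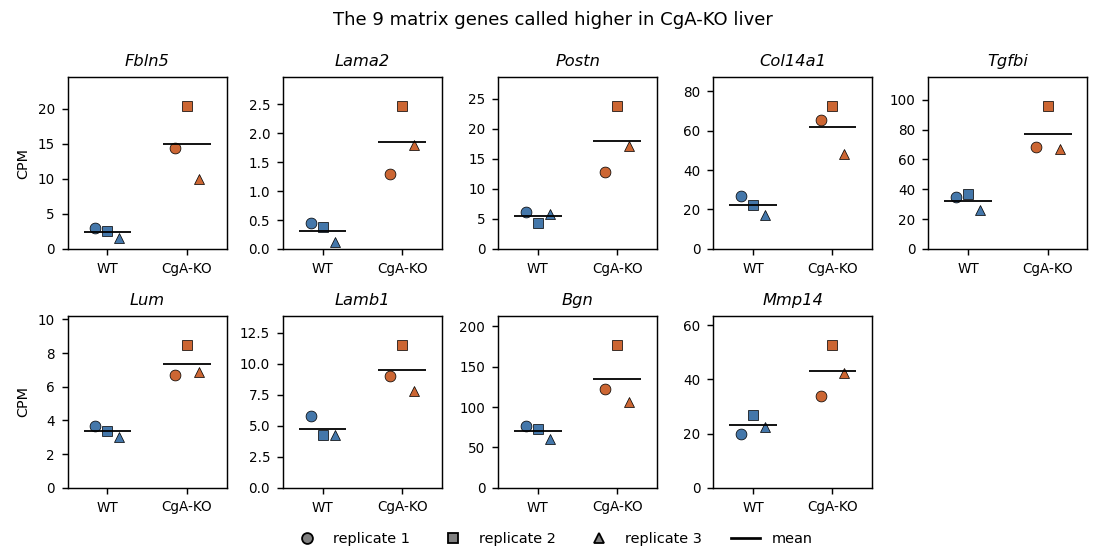
CPM (y axis, from 0) of the 9 matrix genes called higher in CgA-KO liver, in each of the 6 livers, ordered by fold change. Points are single livers, with the marker shape giving the replicate number, and lines are means of 3. The genotypes do not overlap in any of the 9 panels, and CgA-KO replicate 2 (square) is the highest liver in each.

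Over all 38 members tested, the livers of the genotypes did not overlap for 20, of which 19 were higher in CgA-KO and 1, Col15a1, was lower. Among all genes tested, 33.6% did not overlap in either direction and 19% did not overlap with the higher level in CgA-KO. With 3 livers a side the smallest p of an exact permutation test (two-sided) is 0.1, and each of the 20 had that value.

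Further genes of the same pathways were counted on lists that held none of the 39 members. The counts stand beside 12.4% of all genes called (8.6% higher and 3.84% lower). The other basement membrane list (3 of 20 tested), the collagen synthesis list (3 of 22) and the TGF-beta pathway list (4 of 29) lay near that share. Of 23 other basement membrane genes, 20 were tested, 1 was called higher and 2 were called lower, with a median log2 fold change of -0.01. Pxdn, which encodes the peroxidase that crosslinks collagen IV, was the one called higher (log2 fold change 1.23, edgeR's adjusted p = 0.0240). Lama3, the laminin alpha chain of epithelial basement membrane, was at 8.87, 9.19 and 9.83 CPM in WT and at 2.83, 2.54 and 3.85 CPM in CgA-KO livers. It was lower in every CgA-KO liver (log2 fold change -1.60, edgeR's adjusted p = 0.00778), while Lama2 was higher in every CgA-KO liver. Fras1, which links epithelium to the matrix beneath it, was also lower (log2 fold change -2.64, edgeR's adjusted p = 0.0323), with WT replicate 1 at 12.4 CPM and the other two WT livers at 3.32 and 2.37 CPM.

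Of 39 other interstitial matrix genes, 28 were tested, 5 were called higher and 1 was called lower, with a median log2 fold change of 0.75. Those named as higher were the matricellular genes Thbs1 (3.92, edgeR's adjusted p = 0.00894) and Tnc (3.15, edgeR's adjusted p = 0.00774) and Emilin2 (2.80, edgeR's adjusted p = 0.0308), on the log2 scale. Few WT reads lay behind both matricellular genes, with Thbs1 at 8, 7 and 13 counts and Tnc at 10, 9 and 7, so the sizes of these fold changes are loosely set. Only 1 WT liver reached the level of the count filter for Tnc, so it was tested through its CgA-KO counts. Thbs1 was at 0.717, 0.298 and 0.551 CPM in WT and at 3.11, 14.7 and 5.07 CPM in CgA-KO livers, highest again in CgA-KO replicate 2, and it was not called without WT replicate 2 or without WT replicate 3. Emilin2 lost its call in 7 of 16 alternatives, among them the fits without WT replicate 2 or 3 and without CgA-KO replicate 1 or 2. Col27a1, a minor fibrillar collagen outside the 5 members, was the gene called lower, at 165, 34.0 and 96.4 CPM in WT and at 25.4, 19.9 and 17.4 CPM in CgA-KO livers. The log2 fold change of Col27a1 was -2.23, with edgeR's adjusted p = 0.0205. Col5a3, a type V collagen gene outside the members, was at 114, 49.9 and 297 CPM in WT and at 56.0, 43.4 and 15.2 CPM in CgA-KO livers. The genotypes overlapped for Col5a3, and its log2 fold change of -2.01 (SE 0.65) was not called (edgeR's adjusted p = 0.0770). In WT, Col27a1 and Col5a3 had a higher mean CPM than any of the 5 fibrillar members, and unlike them had log2 fold changes below 0.

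Of 26 genes that make and trim collagen, 22 were tested, 3 were called higher and none lower, with a median log2 fold change of 0.44. The 3 were Pcolce2, an enhancer of procollagen cleavage (2.25, edgeR's adjusted p = 0.0469), Loxl4 (1.98, edgeR's adjusted p = 0.0192) and the transglutaminase gene Tgm2 (0.79, edgeR's adjusted p = 0.0494). Loxl4 had 5, 9 and 9 counts in WT, where only 1 liver reached the level of the count filter. It was therefore tested through its CgA-KO counts, and the size of its fold change is loosely set. Each of the 3 lost its call without some single livers. Of 38 matrix degradation genes, 31 were tested, 8 were called higher and 1 lower, with a median of 0.82. The cathepsin S gene Ctss was at 357, 564 and 288 counts in WT and at 3560, 6751 and 3854 counts in CgA-KO livers (log2 fold change 3.02, edgeR's adjusted p = 0.00322). Mmp8, the neutrophil collagenase, had 1, 7 and 0 counts in WT and 29, 147 and 31 in CgA-KO livers, and Mmp7 had 6, 5 and 2 counts against 26, 135 and 35. Both were called (edgeR's adjusted p = 0.0233 and 0.0258), but no WT liver for Mmp8 and 1 for Mmp7 reached the level of the count filter, so they were tested through their CgA-KO counts and no fold is given. Neither was called without CgA-KO replicate 2 or without WT replicate 3. Mmp15, a membrane-bound relative of Mmp14, was lower in every CgA-KO liver, at 26.2, 34.5 and 30.9 CPM in WT and at 10.2, 17.0 and 9.82 CPM in CgA-KO livers (log2 fold change -1.31, edgeR's adjusted p = 0.0137), while Mmp14 was higher.

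Of 30 TGF-beta pathway genes beyond the members, 29 were tested, 3 were called higher and 1 lower, with a median log2 fold change of 0.29. Tgfb1, the main ligand in liver, was at 9.58, 6.17 and 4.66 CPM in WT and at 26.8, 28.6 and 24.9 CPM in CgA-KO livers. It did not overlap and had a log2 fold change of 2.00 (edgeR's adjusted p = 0.00484), set beside 0.14 for Tgfb2 and 0.50 for Tgfb3. The type I receptor gene Acvrl1 (2.29, edgeR's adjusted p = 0.0166) and Skil, a feedback inhibitor of Smads (1.23, edgeR's adjusted p = 0.0253), were also higher, and Inhba, which encodes an activin chain, was lower (-0.93, edgeR's adjusted p = 0.0201). Of 25 matrix receptors, 23 were tested, 8 were called higher and none lower, with a median log2 fold change of 0.46. They included the leukocyte collagen receptor gene Lair1 (3.13, edgeR's adjusted p = 0.00180) and the hyaluronan receptor gene Cd44 (3.07, edgeR's adjusted p = 0.00484). Itga2 was also called (edgeR's adjusted p = 0.0177), with 1, 0 and 7 counts in WT and 36, 75 and 40 in CgA-KO livers, where no WT liver reached the level of the count filter and no fold is given.

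Some markers of the cells that make or hold matrix also differed between the genotypes, and their part in the members' values was not tested. The counts of called markers stand beside 12.4% of all genes called (8.6% higher and 3.84% lower). The sinusoidal (2 of 12) and vascular endothelial (2 of 13 tested) counts lay near that share. Of 16 hepatic stellate cell markers, all tested, 7 were called higher and none lower, with a median of 0.79 (log2 fold change). With 1 library left out, between 1 and 7 of them were called. The list summed to between 250 and 278 CPM in WT and between 391 and 528 CPM in CgA-KO livers. Within that list the retinol-storing enzyme gene Lrat had a log2 fold change of 0.15 (edgeR's adjusted p = 0.775), the desmin gene Des one of -0.11 (edgeR's adjusted p = 0.808) and Pdgfrb one of 0.85 (edgeR's adjusted p = 0.0910). Of 10 myofibroblast or smooth muscle markers, 6 were tested, 1 was called higher and 1 lower, and the sums overlapped, at 18.0 to 49.5 CPM in WT and 19.4 to 29.9 CPM in CgA-KO livers. Acta2 had a log2 fold change of -1.51 (edgeR's adjusted p = 0.254) and Tagln one of -0.50 (edgeR's adjusted p = 0.648). Of 11 fibroblast markers, 9 were tested and 3 were called higher, namely Thy1, Pdgfra and Dcn (Thy1 lost its call in 12 of 15 alternatives). The list summed to 141 to 197 CPM in WT and 235 to 408 CPM in CgA-KO livers. Most of each sum was Dcn, which is also on the interstitial matrix list, at 93.1, 137 and 94.4 CPM in WT and at 192, 285 and 170 CPM in CgA-KO livers. The median log2 fold change of the list was 0.21, with 6 genes above 0 and 3 below, and its mean log2 CPM overlapped between genotypes. Pdgfra was at 6.90, 3.70 and 3.73 CPM in WT and at 13.0, 15.7 and 11.1 CPM in CgA-KO livers, and Thy1 was at 50.8 CPM in CgA-KO replicate 2 and at 5.94 and 4.57 CPM in the other two CgA-KO livers.

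Other cell types gave mixed values. Of 12 liver sinusoidal endothelial cell markers, 1 was called higher and 1 lower, with sums of 237 to 294 CPM in WT and 244 to 332 CPM in CgA-KO livers, and Stab2 had a log2 fold change of 0.83 (edgeR's adjusted p = 0.0632). Of 14 vascular endothelial cell markers, 13 were tested and 2 were called higher, Cdh5 and Ly6a. The list summed to 77.1 to 105 CPM in WT and 130 to 201 CPM in CgA-KO livers. Most of that rise came from the 2 called genes. In mean CPM, Cdh5 went from 8.46 in WT to 31.7 in CgA-KO livers, and Ly6a from 4.86 to 52.3. Cdh5 is also on the Kupffer cell list. The median log2 fold change of the vascular list was 0.02, with 7 genes above 0 and 6 below. The mean log2 CPM of that list overlapped between genotypes. Pecam1 had a log2 fold change of 0.94 (edgeR's adjusted p = 0.0776). None of the 7 mesothelial and none of the 8 cholangiocyte markers was called (at an unadjusted p under 0.05 there was 1 on each list), with Msln at a log2 fold change of -0.26 and Krt19 at 0.17. Of 14 Kupffer cell markers, 11 were called higher. The median of their log2 fold changes was 2.99, and they summed to 503 to 658 CPM in WT and 1816 to 2538 CPM in CgA-KO livers. Of 11 monocyte or recruited macrophage markers, a list that holds the member Fn1, 5 were called higher, with sums of 870 to 1016 CPM in WT and 1027 to 1279 CPM in CgA-KO livers. Most of each sum was Fn1, at 701 to 880 CPM in WT and 668 to 803 CPM in CgA-KO livers. The median log2 fold change of that list was 2.05, with 9 genes above 0 and 2 below. Of 10 neutrophil markers, 5 were tested and 4 were called higher, and the list summed to 234 CPM in CgA-KO replicate 2, to 30.4 and 32.0 CPM in the other two CgA-KO livers and to between 2.54 and 10.3 CPM in WT. Among the called ones, Mmp8 (1, 7 and 0 counts in WT) and Retnlg (0, 13 and 5) passed the filter through their CgA-KO libraries. None of the 7 platelet markers was called, although 5 of the 6 tested had an unadjusted p under 0.05, against 29.1% of all genes tested. Of these 5, Gp9 (0, 6 and 7 counts in WT), Gp1bb (3, 1 and 0) and Treml1 (5, 4 and 4) passed the filter through their CgA-KO libraries.

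**Figure D5:**
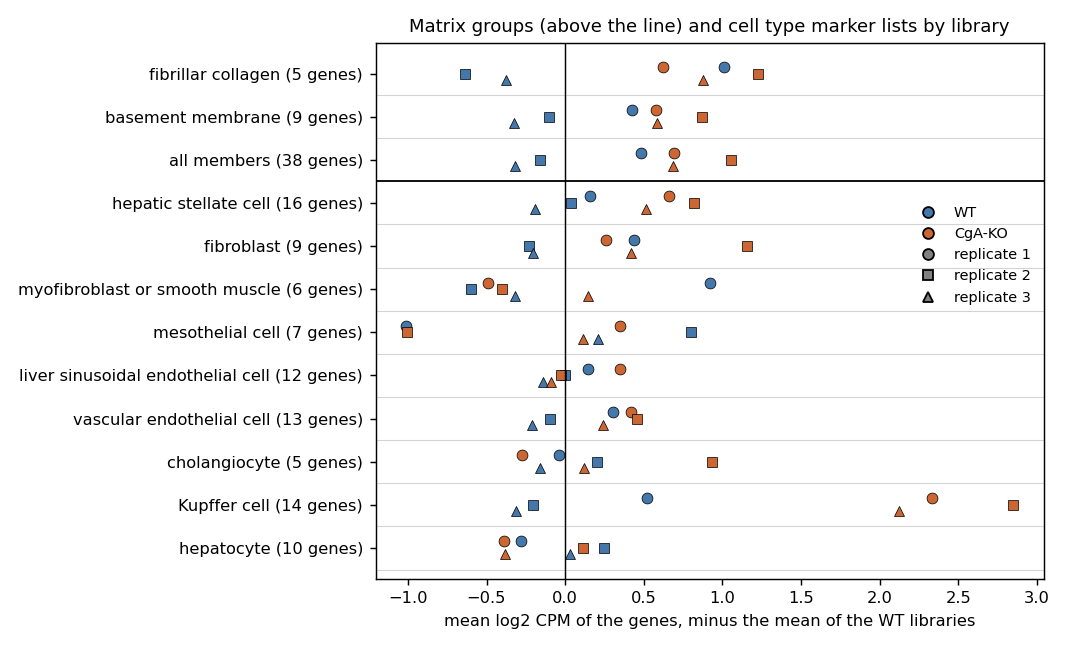
Mean log2 CPM of each gene group in each liver, minus the mean of the 3 WT livers (x axis), for 3 groups of matrix genes (above the line) and 9 lists of cell type markers (below it). Blue points are WT and orange points CgA-KO, and the marker shape gives the replicate number. WT replicate 1 lies at 1.01 for the fibrillar collagens, among the CgA-KO livers (0.62 to 1.23), and at 0.92 for myofibroblast markers, while the stellate cell list (0.51 to 0.82 in CgA-KO) and the Kupffer cell list (2.13 to 2.85 in CgA-KO) separate the genotypes.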

How the data were processed

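Poly(A) RNA from 6 livers, 3 of each genotype, was sequenced in paired-end mode. The deposited values are gene counts, whole numbers without normalization, which the authors made with Salmon 1.4.0 against the GRCm38 transcriptome. How transcripts were summed to genes, and whether counting used strand, is not given in the sources used here. All columns belonged to a sample. The members and lists were chosen with earlier results of these data known, and every pathway list was counted in full.

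Genotypes were compared in R 4.3.3 by edgeR 4.0.16 (filterByExpr with a minimum count of 10, TMM factors, robust quasi-likelihood fit on genotype, two-sided), and p-values were adjusted by Benjamini-Hochberg across every gene that passed the filter. The study itself names DESeq2, which served as an alternative (1.42.0), as did limma-voom (limma 3.58.1). The fit was tested on simulated data in which 200 genes had known changes. Log2 CPM used a prior count of 2. The floor of 3 counts was between 0.0965 and 0.284 CPM per library, for counting error only. Replicates of 1 genotype differed by more than sampling noise (chi-square per degree of freedom 29.9 to 190). Named genes were every member, and from each other pathway list up to 3 called genes per direction with the largest fold change at 1 CPM or more, beside a set of defining markers. Outside this rule, Col5a3, Dcn, Cdh5 and Ly6a were named as well, and their single values were not recomputed under the alternatives. Coordinates and exon lengths are from GENCODE on GRCm38, and sequences from RefSeq on GRCm38.p6. Python 3.11.15 with matplotlib 3.10.9 made the figures.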

Additional observations from a re-analysis of the deposited data

How the results depend on the processing

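The counts of called genes and the members' values were recomputed under 16 alternatives, except that Lox had 14, and Lama2 and Tgfb2 15, because a filter left them out. The difference of medians has no value at an adjusted p under 0.01. The count of all genes called was 1726, and it was 2592 with DESeq2, 360 at an adjusted p under 0.01 and between 394 and 2126 with 1 library left out. Of the members, 15 were called with DESeq2 (14 higher and 1 lower, where 17.2% of all genes were called), 3 at an adjusted p under 0.01 (Fbln5, Col14a1 and Postn) and between 3 and 19 with 1 library left out. Of the basement membrane genes, 6 were called with DESeq2, 5 with limma-voom, 0 at an adjusted p under 0.01 and between 0 and 5 with 1 library left out. Of the fibrillar collagens, 1 was called with DESeq2 and 1 with limma-voom (Col1a2 in both), and between 0 and 4 with 1 library left out. The difference of the basement membrane and fibrillar medians was between -0.045 and 0.45 with 1 library left out, and it was -0.15 with at least 10 counts in every library, where Lama2 was not tested. Scaling by library size alone moved the median of all genes to 0.26 and that of the members to 1.09, changed the calls from 1193 higher and 533 lower to 1293 higher and 200 lower, and turned Fn1 (0.13), Mmp19 (0.041) and Timp3 (0.13) positive. With 1 library left out, the log2 fold change of 5 uncalled genes crossed 0. Its range was -0.16 to 0.24 for Col18a1 (-0.016 without WT replicate 1 and -0.16 without CgA-KO replicate 2), -0.099 to 0.94 for Col5a2 and -0.041 to 1.08 for Col6a3 (both lowest without WT replicate 2), -0.065 to 0.33 for Tgfb2 (lowest without WT replicate 3) and -0.25 to 0.013 for Timp3 (highest without CgA-KO replicate 3). Where no cause is named above, the cause was not tested. Over the single members, 543 values kept direction and side of the threshold, 27 lost the call, 25 gained it and 9 changed sign.

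The replicate numbers did not pair the samples: the deviations of same-numbered livers correlated at 0.20, 0.01 and -0.07, and WT replicate 2 correlated best with CgA-KO replicate 3 (0.23). With the replicate block, 1498 genes, 9 members and 1 basement membrane gene were called. Depth limits Lama2, Lox, Loxl1, Timp1 and Tgfb2, which had 20 counts or fewer in every library of at least 1 genotype.

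The other lists and 32 named genes on them were recomputed under the same alternatives, a choice made after seeing the data. Of the 23 such genes called, 22 were called with DESeq2, 20 with limma-voom, 20 with the replicate block, 7 at an adjusted p under 0.01 and between 8 (without WT replicate 3) and 21 (without WT replicate 1) with 1 library left out. Lama3, Tnc, Ctss, Tgfb1, Lair1 and Cd44 were called in each alternative that tested them. With 1 library left out, the called genes numbered 1 to 3 of the other basement membrane list, 1 to 7 of interstitial matrix, 0 to 4 of collagen synthesis, 1 to 11 of degradation, 1 to 5 of the TGF-beta pathway and 6 to 8 of the receptors, and DESeq2 called 15 of the degradation genes. For the cell type lists, fits with 1 library left out called 1 to 7 stellate, 0 to 1 myofibroblast, 0 to 3 fibroblast, 2 to 4 sinusoidal and 0 to 3 vascular endothelial markers. Those fits called 7 to 11 Kupffer cell, 2 to 6 monocyte, 0 to 6 neutrophil and 0 to 1 platelet markers, and no mesothelial, cholangiocyte or hepatocyte marker. Scaling by library size alone turned Des (0.14) and Msln (0.061) positive. With 1 library left out, the range was -0.11 to 0.51 for Lrat, -0.24 to 0.061 for Des, -1.20 to 0.52 for Tagln (highest without WT replicate 1), -0.57 to 0.13 for Msln and -0.12 to 0.51 for Krt19 (-0.050 without CgA-KO replicate 2).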
